A study of Arabidopsis thaliana and Ginkgo biloba and Brassica rapa with 14 samples.

Results

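The tRNA methylation profile of durum wheat, Triticum durum, a monocot, was compared site by site with that of the eudicots Arabidopsis thaliana and Brassica rapa. Members were the tRNA cytosines with a methylation percentage in all 3 species, which held for 40 of the 59 sites tabulated over 6 species. A further 4 sites had a number in T. durum and lacked one in A. thaliana or B. rapa, so that 44 sites in 25 tRNAs were measured in wheat. The reference value of a site was the mean of its A. thaliana and B. rapa percentages, called the eudicot mean here, and a difference is T. durum minus that mean in percentage points.

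Methylation was measured by RNA bisulfite sequencing (RBS-seq), in which bisulfite converts unmodified cytosine to a base read as thymine while 5-methylcytosine (m5C) is still read as cytosine, on RNA cut from a gel to enrich for tRNAs. The T. durum library came from wild type flag leaf, the uppermost leaf of the wheat shoot, and was the only one. The A. thaliana values were the authors' means over up to 3 libraries of wild type seedlings collected 10 days after germination, with the number of libraries behind each value not given, and the B. rapa values came from 1 library of wild type plants, labelled as leaf and described as shoot apex in the study's methods. The other species were the gymnosperm Ginkgo biloba (likewise leaf by its label and shoot apex in the methods) and the algae Caulerpa taxifolia (frond) and Nannochloropsis oculata (cells), with 1 wild type library each, and are given where they have a value at a site that differed. Species and tissue cannot be told apart in this design, and with 1 wheat library no difference has a replicate error or a test. The depth behind each percentage is unknown beyond the authors' minimum of 5 reads, which leaves room for values resting on very few reads, so differences are read against the distance between A. thaliana and B. rapa, whose median over the 40 sites was 3 points.

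In tRNAs, m5C is concentrated at a few structural positions: C38 in the anticodon loop, C48 in the variable region between the anticodon and T arms, C49 and C50 in the T stem, and C72 in the acceptor stem. In A. thaliana, TRDMT1, the homologue of the animal enzyme DNMT2, methylates C38, and TRM4B, a homologue of yeast Trm4 and animal NSUN2, methylates many cytosines of the variable region and T stem. The modification is known for protecting tRNAs from cleavage and for stabilising their folding. Plant cells hold tRNAs from nuclear, chloroplast and mitochondrial genomes, and an isodecoder here is the group of tRNAs with the same anticodon and closely similar sequence, collapsed by the authors to 1 consensus per group and origin.

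The sequences below place the sites that the comparison turns on. No wheat sequence was held, so these are the A. thaliana consensus sequences on which positions were counted, written 5′ to 3′ as DNA from TAIR10, with the cytosines of the methylation table in capitals. The first set holds the tRNAs of chloroplast or possible chloroplast origin. The listed genes were chrC:27373-27443 for tRNA-Cys(GCA), chrC:30466-30538 for tRNA-Glu(TTC), chrC:36704-36777 for tRNA-Met-i(CAT), and chrC:114270-114349 with a nuclear counterpart at chr4:5268128-5268213 for tRNA-Leu(TAG), each site lying within the tRNA gene itself.
Cys(GCA), chloroplast: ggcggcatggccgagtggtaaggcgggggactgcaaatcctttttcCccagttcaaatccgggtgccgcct
Glu(TTC), chloroplast: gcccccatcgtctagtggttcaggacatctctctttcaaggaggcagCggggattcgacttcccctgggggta
Leu(TAG), nuclear or chloroplast: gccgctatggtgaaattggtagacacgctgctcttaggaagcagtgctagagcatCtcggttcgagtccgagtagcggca
Met-i(CAT), chloroplast: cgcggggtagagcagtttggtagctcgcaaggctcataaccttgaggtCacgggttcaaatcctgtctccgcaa

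The second set holds the nuclear tRNAs with a site at least 20 points from the eudicot mean, and shows how C48, C49 and C50 follow each other directly in tRNA-Asp(GTC) and both tRNA-Glu isodecoders. Each consensus stands for several genes, from 7 for tRNA-Gln(TTG) to 25 for tRNA-Asp(GTC).
Asp(GTC), nuclear: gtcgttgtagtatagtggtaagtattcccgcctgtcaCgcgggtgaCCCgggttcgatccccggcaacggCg
Gln(TTG), nuclear: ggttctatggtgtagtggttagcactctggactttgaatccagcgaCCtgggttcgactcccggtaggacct
Glu(CTC), nuclear: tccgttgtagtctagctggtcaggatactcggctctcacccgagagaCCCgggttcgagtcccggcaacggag
Glu(TTC), nuclear: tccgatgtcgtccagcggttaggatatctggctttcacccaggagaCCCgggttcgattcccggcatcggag
His(GTG), nuclear: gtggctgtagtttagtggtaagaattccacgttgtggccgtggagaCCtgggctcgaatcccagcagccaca
Ile(AAT), nuclear: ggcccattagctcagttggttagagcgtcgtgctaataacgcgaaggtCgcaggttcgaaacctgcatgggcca
Val(CAC), nuclear: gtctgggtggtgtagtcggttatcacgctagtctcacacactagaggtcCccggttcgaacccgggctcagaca

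The third set holds the tRNAs with a wheat value and none in A. thaliana. In tRNA-Arg(CCG) the capital is the G that A. thaliana carries at position 49.
Arg(CCG), nuclear: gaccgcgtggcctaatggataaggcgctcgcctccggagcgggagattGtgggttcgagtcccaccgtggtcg
Arg(CCT), nuclear: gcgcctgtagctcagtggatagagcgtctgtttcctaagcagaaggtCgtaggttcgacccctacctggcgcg
Leu(CAG), nuclear: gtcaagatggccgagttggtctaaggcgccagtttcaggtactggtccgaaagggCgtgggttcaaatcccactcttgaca
Ser(AGA), nuclear: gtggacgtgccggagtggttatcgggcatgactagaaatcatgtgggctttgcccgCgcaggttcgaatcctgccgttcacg

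In the flag leaf library, 41 of the 44 measured sites (93.2%) were methylated at 20% or more, the authors' threshold for a methylated site. A site is listed only if methylated in some species, so a high share follows in part from that selection. It is no estimate for wheat tRNA cytosines at large. They lay in 23 tRNAs, of which 20 were nuclear tRNAs for 11 amino acids. At these listed sites wheat methylation was mostly near complete: 30 sites stood at 80% or more, 22 at 90% or more, and the highest at 97%. A further 8 sites lay between 50% and 80%, 3 between 20% and 50%, and 3 below 20%, and the median of the methylated sites was 90%. By position, all 17 nuclear C48 sites with a wheat number were methylated, from 40% to 96%, as were 12 of 13 C49 sites and all 5 C50 sites, all 3 C38 sites and the single C72 site. The single C68 site, in tRNA-Lys(CTT), was the exception among positions, with 11%. Among the 20 methylated nuclear tRNAs, 11 had 1 methylated site, and the most heavily marked were tRNA-Asp(GTC) with 5 and tRNA-Gly(GCC) with 4.

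Over the 40 shared sites, T. durum was higher than the eudicot mean at 31, lower at 7 and equal at 2, and the median difference was 2.67 points. Against A. thaliana alone the median was 1 point (40 sites), and against B. rapa alone it was 3.5 points (42 sites). Most differences were small: 21 sites lay within 5 points, 5 lay between 5 and 10 points, and 4 between 10 and 20 points. At 10 sites (25%) the difference was 20 points or more, with T. durum higher at 8 (20%) and lower at 2 (5%). For comparison, A. thaliana and B. rapa were 20 points or more apart at 4 of the same sites (10%). T. durum was as far from A. thaliana at 10 sites and from B. rapa at 9. These wheat counts include chloroplast or possible chloroplast sites that are listed through T. durum alone. Among the 36 nuclear sites, the eudicots were that far apart at 4, T. durum and A. thaliana at 7, and T. durum and B. rapa at 6. T. durum lay within the range spanned by the 2 eudicots at 18 sites, above both at 18 and below both at 4. It stood 10 points or more outside that range at 12 sites (30%), of which 9 were nuclear. Methylated sites numbered 37 of 40 in T. durum, against 32 in A. thaliana and 32 in B. rapa. Chloroplast or possible chloroplast sites unmethylated in every other species with a value are listed through T. durum alone and add to its count. Over the 36 nuclear sites, the counts were 34 in T. durum, 32 in A. thaliana and 32 in B. rapa. As a description over sites that share libraries and reference sequences, Pearson's r was 0.54 between T. durum and A. thaliana, 0.57 between T. durum and B. rapa, and 0.86 between the eudicots (n = 40 sites). Within the 36 nuclear sites, these values were 0.66, 0.71 and 0.77.

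**Figure D1:**
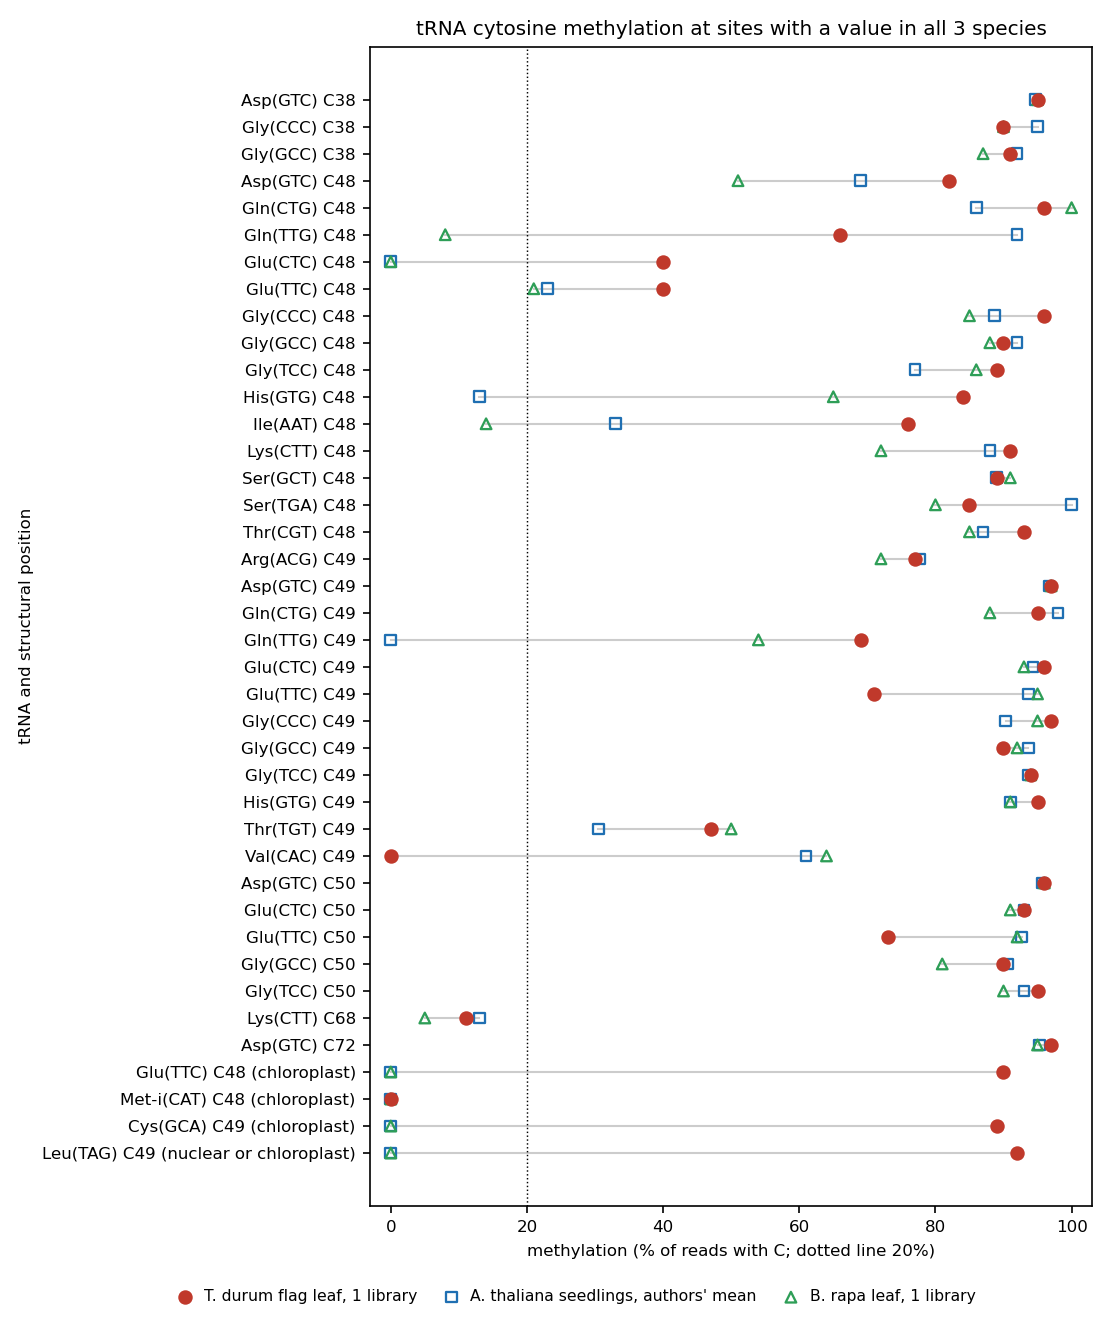
Methylation (percent of reads with C, horizontal axis) at each of the 40 shared sites (vertical axis, ordered by origin and structural position) in T. durum (filled circles), A. thaliana (squares, the authors' mean) and B. rapa (triangles), with a dotted line at 20%. Most nuclear rows have all 3 symbols close together on the right, whereas 3 of the 4 lowest rows have T. durum between 89% and 92% and both eudicots at 0%.

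The 3 largest differences were in tRNAs whose consensus is of chloroplast or possible chloroplast origin, and at each of them the eudicots had 0%. C49 of chloroplast tRNA-Cys(GCA) was 89% in T. durum, against 0% in A. thaliana and 0% in B. rapa, and it was also 0% in G. biloba and N. oculata. C48 of chloroplast tRNA-Glu(TTC) was 90% in T. durum, against 0% in A. thaliana, 0% in B. rapa and 0% in all 3 other species. C49 of tRNA-Leu(TAG), whose consensus stands for a nuclear and a chloroplast gene of A. thaliana, was 92% in T. durum, against 0% in A. thaliana, 0% in B. rapa and 0% in G. biloba. T. durum thus stood alone at these 3 sites among the species with a value. Each of the 3 is listed only through its T. durum value, and chloroplast cytosines unmethylated in every species are not listed. The fourth shared site of this kind, C48 of chloroplast tRNA-Met-i(CAT), did not follow them: it was 0% in T. durum, 0% in A. thaliana and 0% in B. rapa, and 63% in N. oculata alone. The median difference over the 4 sites was 89.5 points, a value shaped by how sites came to be listed and not one for chloroplast tRNAs in general.

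Origin at these sites is that of the A. thaliana consensus. For the species other than A. thaliana, the authors also aligned reads to tRNAs of the closest relative with annotated tRNAs, and whether the wheat reads came from chloroplast or from nuclear copies was not tested. The 3 tRNAs were abundant or moderately so in the A. thaliana RNA-seq library of gel-purified RNA, with 9122 RPM (reads scaled to library size) for tRNA-Leu(TAG), 4307 RPM for tRNA-Glu(TTC) and 68.4 RPM for tRNA-Cys(GCA). Abundances in wheat were not analysed here.

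In nuclear tRNAs the wheat profile was close to that of the eudicots. T. durum was higher than the eudicot mean at 28 of the 36 nuclear sites, lower at 7 and equal at 1, with a median difference of 2.25 points. Against each eudicot alone, the median was 0.33 points for A. thaliana (36 sites) and 3 points for B. rapa (38 sites). Some of the higher sites, such as C49 of tRNA-Gly(TCC), differed from the eudicot mean by only 0.17 points, so the count of higher sites overstates the difference. Taken without sign, the median distance was 4.08 points between T. durum and the eudicot mean, 4.5 between T. durum and A. thaliana and 5 between T. durum and B. rapa, against 3.83 between the eudicots. The median level was 90% in T. durum, against 90.8% in A. thaliana and 87.5% in B. rapa. Of the 25 nuclear sites with a eudicot mean of 80% or more, 23 were also at 80% or more in T. durum, and the median size of the difference there was 2.83 points. The exceptions were C49 and C50 of nuclear tRNA-Glu(TTC). Differences of 20 points or more in either direction occurred at 7 nuclear sites (19.4%), 5 of them higher in T. durum (13.9%).

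Among nuclear positions with more than 1 shared site, C48, in the variable region, had the largest median difference. Of the 14 shared nuclear C48 sites, 11 were higher in T. durum, 2 were lower and 1 was equal, and the median difference was 10.1 points, from a lowest of −5 to a highest of 52.5. The position was also the one at which the eudicots differed most from each other, with a median distance of 11.5 points, taken without sign. Median levels were 87% in T. durum, 86.5% in A. thaliana and 76% in B. rapa. Where the A. thaliana consensus has a C at position 49 next to it, T. durum was higher at 8 of 9 C48 sites and equal at the ninth, with a median difference of 16 points. Where it has a G, T. durum was higher at 3 of 5 and lower at 2, with a median of 7 points.

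The A. thaliana abundance of tRNA-Ile(AAT) was only 0.34 RPM in the RNA-seq library. The widest nuclear gap above the eudicot mean was at C48 of this tRNA, which was 76% in T. durum, against 33% in A. thaliana and 14% in B. rapa. G. biloba, with 59%, and C. taxifolia, with 79%, were also above both eudicots at that site. C48 of tRNA-His(GTG), the only histidine tRNA in the comparison, was 84% in T. durum, against 13% in A. thaliana and 65% in B. rapa, and G. biloba matched B. rapa with 65%. The eudicots were 52 points apart there, and T. durum lay 19 points above the higher of them. C48 of tRNA-Glu(CTC) was 40% in T. durum, against 0% in A. thaliana and 0% in B. rapa, with 22% in G. biloba and 0% in N. oculata. Among the shared nuclear sites, this was the single one methylated in T. durum and in neither eudicot.

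C48 of tRNA-Asp(GTC) was 82% in T. durum, against 69% in A. thaliana and 51% in B. rapa, and the other species ranged from 24% in C. taxifolia to 64% in N. oculata, so wheat had the highest of the 6 values. With a difference of 22 points it was the site just past the 20-point limit on the higher side. Just short of that limit was C48 of nuclear tRNA-Glu(TTC), 40% in T. durum, against 23% in A. thaliana and 21% in B. rapa, with 0% in C. taxifolia. C48 of tRNA-Gln(TTG) was 66% in T. durum, against 92% in A. thaliana and 8% in B. rapa, with 6% in C. taxifolia and 33% in N. oculata. Wheat was 16 points above the eudicot mean there but lay between eudicots that were 84 points apart. C48 of tRNA-Lys(CTT) was 91% in T. durum, against 88% in A. thaliana and 72% in B. rapa, with 88% in G. biloba and 87% in C. taxifolia. Lower values in wheat were confined, among shared C48 sites, to the serine tRNAs, where tRNA-Ser(TGA) was 85% in T. durum, against 100% in A. thaliana and 80% in B. rapa, and tRNA-Ser(GCT) was 89% in T. durum, against 89% in A. thaliana and 91% in B. rapa. In both cases wheat lay within the range of the eudicots. The remaining C48 sites, in tRNA-Gln(CTG), tRNA-Gly(CCC), tRNA-Gly(GCC), tRNA-Gly(TCC) and tRNA-Thr(CGT), were 89% to 96% in T. durum and differed by 0 to 9.17 points.

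**Figure D2:**
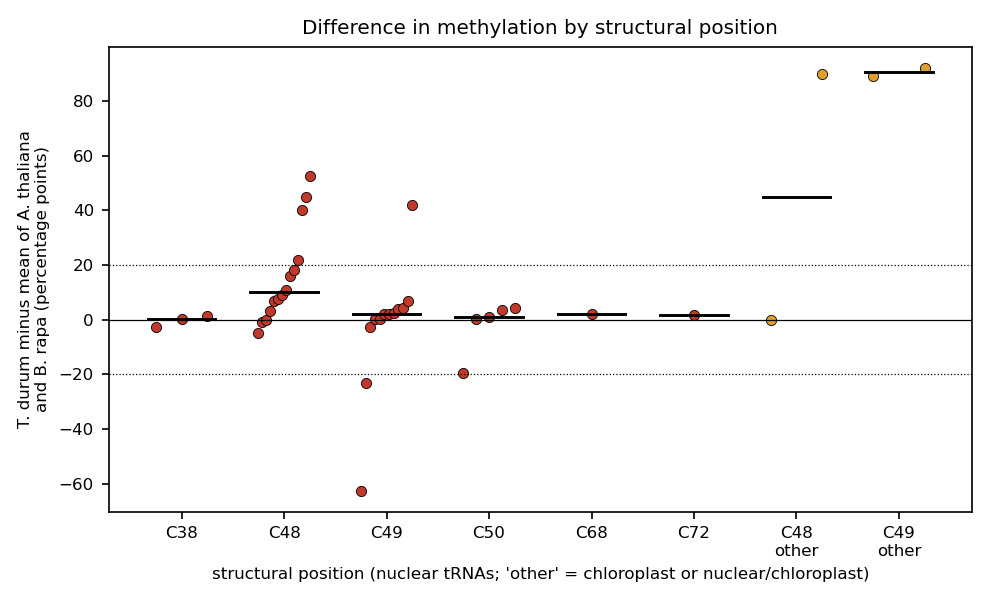
Difference in methylation between T. durum and the eudicot mean (percentage points, vertical axis) for the 40 shared sites by structural position (horizontal axis), with nuclear sites in red, chloroplast or nuclear/chloroplast sites in orange, horizontal bars at medians and dotted lines at 20 points in either direction. Nuclear C48 spreads upwards from −5 to 52.5, most nuclear C49 and C50 sites lie near 0 with C49 reaching −62.5 and 42, and 3 of the 4 orange sites lie between 89 and 92.

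At C49, the first T-stem position, T. durum and the eudicots had nearly the same median, 92% in T. durum, 92.3% in A. thaliana and 91.5% in B. rapa. Of the 12 shared nuclear C49 sites, 9 were higher and 3 lower in T. durum, with a median difference of 2.08 points, but the range, from −62.5 to 42, was the widest of any position. C49 of tRNA-Val(CAC) was 0% in T. durum, against 61% in A. thaliana and 64% in B. rapa, and was not determined in the other 3 species. It was the only shared site methylated in both eudicots and not in wheat, although the eudicots were only 3 points apart. It is also the only site listed for this tRNA, whose A. thaliana abundance was 1.37 RPM. C49 of tRNA-Gln(TTG) differed in the opposite direction, with 69% in T. durum, against 0% in A. thaliana and 54% in B. rapa, and 94% in C. taxifolia and 100% in N. oculata. In this tRNA A. thaliana was therefore the species apart at C49, and B. rapa and C. taxifolia were the low ones at C48.

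Nuclear tRNA-Glu(TTC) was lower in wheat at both of its T-stem sites. Its C49 was 71% in T. durum, against 93.7% in A. thaliana and 95% in B. rapa, with 64% in C. taxifolia. Its C50 was 73% in T. durum, against 92.7% in A. thaliana and 92% in B. rapa, with 42% in C. taxifolia. The differences were −23.3 and −19.3 points, on either side of the 20-point limit, at sites where the eudicots were within 1.33 points of each other. The other glutamate isodecoder, tRNA-Glu(CTC), had no such gap, with 96% in T. durum, against 94.3% in A. thaliana and 93% in B. rapa at C49, and 93% in T. durum, against 93% in A. thaliana and 91% in B. rapa at C50. At C48, by contrast, both isodecoders stood at 40% in wheat, which was above both eudicots in each case.

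The remaining C49 sites differed by 0.17 to 6.75 points in size. They included tRNA-Asp(GTC), with 97% in T. durum, 96.7% in A. thaliana and 97% in B. rapa, and tRNA-His(GTG), with 95% in T. durum, 91% in A. thaliana and 91% in B. rapa. At the partly methylated ones wheat lay within the eudicot range: tRNA-Arg(ACG) had 77% in T. durum, 77.7% in A. thaliana and 72% in B. rapa, and tRNA-Thr(TGT) had 47% in T. durum, 30.5% in A. thaliana and 50% in B. rapa. A mean of 3 whole percentages cannot be 30.5, so fewer than 3 A. thaliana libraries may stand behind that value. At C50, the other sites were tRNA-Asp(GTC) with 96% in T. durum, 95.7% in A. thaliana and 96% in B. rapa, tRNA-Gly(GCC) with 90% in T. durum, 90.7% in A. thaliana and 81% in B. rapa, and tRNA-Gly(TCC) with 95% in T. durum, 93% in A. thaliana and 90% in B. rapa. In the A. thaliana consensus, all 14 shared C49 sites, organellar ones included, face a G at position 65 and all 5 C50 sites a G at position 64, the partners of these positions in the T stem. No wheat sequence was held, so whether wheat has the same pairs was not tested.

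C38, the TRDMT1 site of the anticodon loop, was within 5 points in T. durum and each eudicot. It was 95% in T. durum, against 94.7% in A. thaliana and 95% in B. rapa, in tRNA-Asp(GTC), and 94% in G. biloba, 64% in C. taxifolia and 42% in N. oculata. In tRNA-Gly(CCC) it was 90% in T. durum, against 95% in A. thaliana and 90% in B. rapa. In tRNA-Gly(GCC) it was 91% in T. durum, against 92% in A. thaliana and 87% in B. rapa, and 86% in G. biloba, 34% in C. taxifolia and 13% in N. oculata. Wheat was within the eudicot range at each of the 3 sites, and the seed plants were all above the algae wherever these had a value. In the acceptor stem, C72 of tRNA-Asp(GTC) was 97% in T. durum, against 95.3% in A. thaliana and 95% in B. rapa, with 91% in G. biloba, 57% in C. taxifolia and 60% in N. oculata. C68 of tRNA-Lys(CTT) was below the threshold in T. durum, with 11%, as in A. thaliana, with 13%, and B. rapa, with 5%, whereas it was 25% in G. biloba and 0% in C. taxifolia. Position 68 counted from the 3′ end is a T in the A. thaliana consensus of this tRNA, so the numbering of that site is uncertain.

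By amino acid and among nuclear tRNAs only, the 10 glycine sites were the most uniform large group, from 89% to 97% in T. durum, with 7 higher than the eudicot mean, 2 lower and 1 equal, and differences from −2.83 to 9.17 points. All 5 aspartate sites were higher in T. durum, but 4 of them by no more than 1.83 points. All 4 glutamine sites were higher as well, by 2 to 42 points, and the nuclear glutamate sites split into 4 higher and 2 lower, from −23.3 to 40 points.

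**Figure D3:**
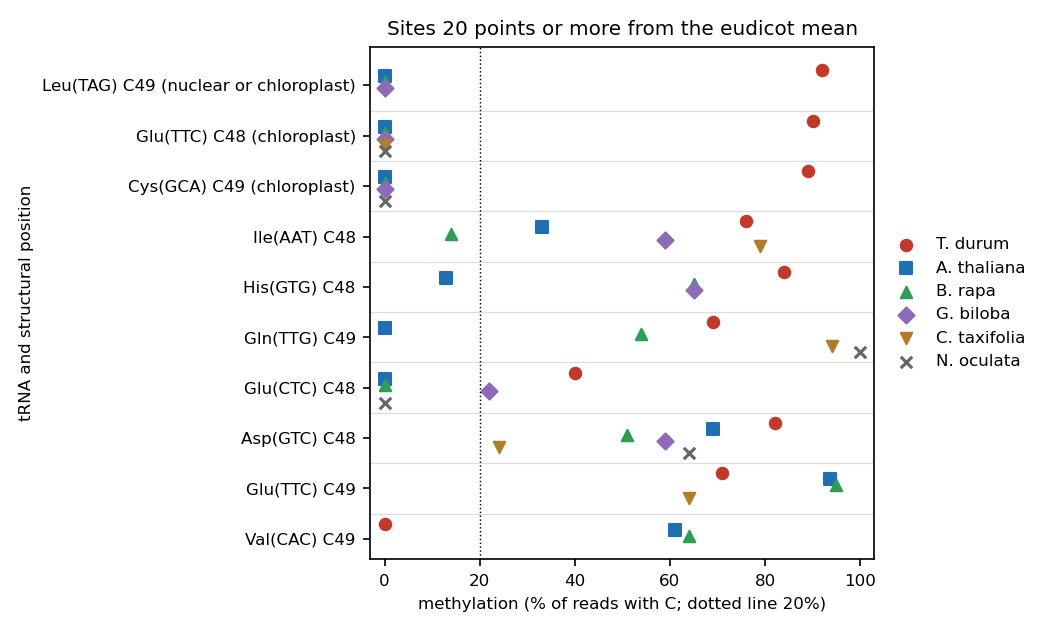
Methylation (percent of reads with C, horizontal axis) at the 10 sites 20 points or more from the eudicot mean (vertical axis, ordered by that difference), for each of the 6 species with a value, with a dotted line at 20%. T. durum stands apart from every other species in the top 3 rows, while G. biloba or an alga lies nearer to it in several nuclear rows, such as tRNA-Ile(AAT) C48 with 79% in C. taxifolia.

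Of the 10 sites 20 points or more from the eudicot mean, 7 had a value in G. biloba, a seed plant outside both monocots and eudicots. G. biloba was closer to T. durum at 3 of them, C48 of tRNA-Ile(AAT), tRNA-His(GTG) and tRNA-Glu(CTC). It was closer to the eudicot mean at 4, C48 of tRNA-Asp(GTC) and the 3 chloroplast or possible chloroplast sites, which are listed through T. durum alone.

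C48 and C49 could be compared within 9 nuclear tRNAs with a value for both in all 3 species. In T. durum, C49 was the higher at 7, C48 at 1, and 1 was equal, and the median of C49 minus C48 was 5 points, from −1 to 56. In A. thaliana, C49 was the higher at 8 of 9, with a median of 16.7 points and a range of −92 to 94.3, and in B. rapa also at 8 of 9, with a median of 26 points and a range of −12 to 93. C49 exceeded C48 by 20 points or more in 2 tRNAs in T. durum, against 4 in A. thaliana and 5 in B. rapa. In T. durum these were tRNA-Glu(CTC), with 96% at C49 and 40% at C48, and tRNA-Glu(TTC), with 71% at C49 and 40% at C48. In tRNA-His(GTG) and tRNA-Gln(TTG), where 1 or both eudicots had a wide gap, wheat had 95% at C49 and 84% at C48, and 69% at C49 and 66% at C48. With 1 wheat library, whether the narrower spread in wheat exceeds the variation between plants was not tested.

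**Figure D4:**
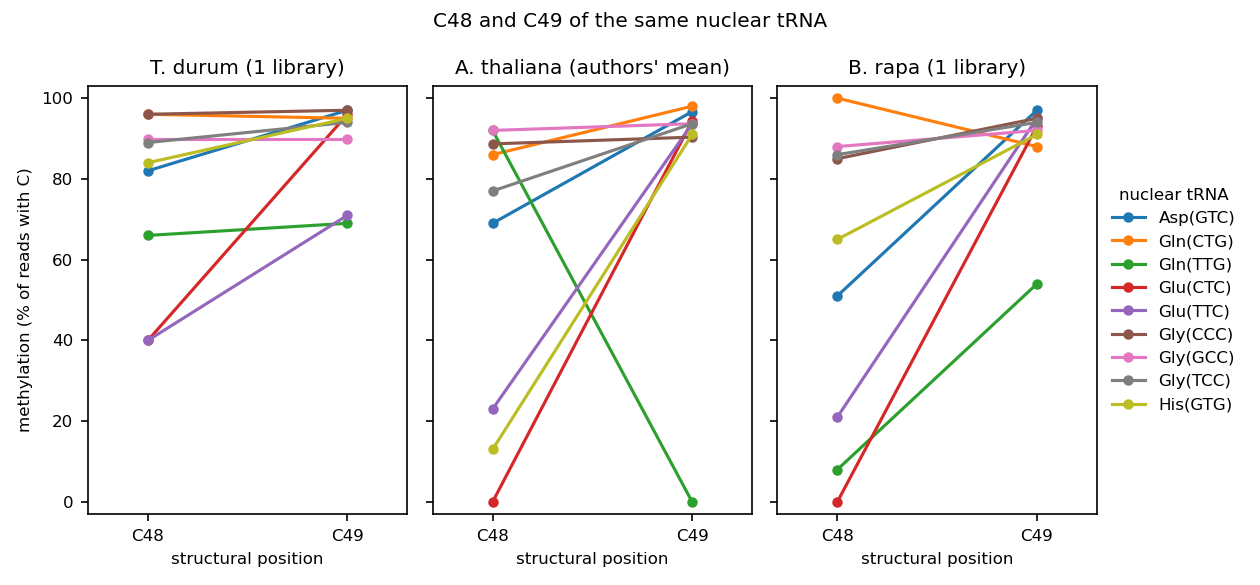
Methylation (percent of reads with C, vertical axis) at C48 and C49 (horizontal axis) of the same nuclear tRNA, 1 line per tRNA, in T. durum, A. thaliana and B. rapa. Most wheat lines are flat and high, with the 2 tRNA-Glu lines starting at 40%, while the eudicot panels hold steeper lines, including tRNA-Gln(TTG) with 0% at C49 and 92% at C48 in A. thaliana.

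At 2 nuclear sites, both in arginine tRNAs, T. durum had a number and neither eudicot had one. C48 of tRNA-Arg(CCT) was 67% in T. durum and not determined in A. thaliana and B. rapa, and it was 0% in C. taxifolia. C49 of tRNA-Arg(CCG) was 52% in T. durum, whereas A. thaliana, B. rapa and G. biloba carry a G there, so no methylation could be measured in them. At a further 2 sites the comparison was with B. rapa alone, because A. thaliana was not determined. C48 of tRNA-Leu(CAG) was 86% in T. durum, against 88% in B. rapa. C48 of tRNA-Ser(AGA) was 87% in T. durum, against 100% in B. rapa, with 40% in G. biloba and 70% in C. taxifolia.

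The 15 tabulated sites without a wheat number comprised 13 that were not determined and 2 where wheat had another base. Of the 13, 9 had a number in A. thaliana or B. rapa, in the 8 tRNAs Ala(AGC), Ala(CGC), Ala(TGC), Arg(TCG), Leu(CAA), Leu(TAA), Lys(TTT) and Ser(CGA). All alanine sites of the table were among them, so nothing can be said here of alanine tRNAs in wheat. The same holds for the anticodon position C34 of tRNA-Leu(CAA), which was 89% in B. rapa and not determined in T. durum or A. thaliana. The other 4 lacked a number in both eudicots as well.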

How the data were processed

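RNA from wild type T. durum flag leaf (1 RBS-seq library), A. thaliana seedlings (3) and B. rapa (1) was gel-purified, bisulfite converted and sequenced. The authors trimmed reads and aligned them in CLC Genomics Workbench (version not given in the sources used here) to consensus tRNAs converted in silico, adding for species other than A. thaliana the tRNAs of the closest annotated relative. Methylation is a percent in the table deposited by the authors, cytosine reads over cytosine plus thymine reads, with at least 5 reads per position, above 98% conversion of an unmethylated control RNA, and A. thaliana averaged over its libraries. The A. thaliana RPM values were deposited by the authors from 1 RNA-seq library aligned to 100 consensus sequences (TAIR10). The reads per site and the wheat RNA-seq library were not analysed here. Reads of a tRNA with near-identical copies cannot be assigned to one gene.

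Cells holding a base or "not determined" were kept apart from numbers. Differences, medians, counts at 20% and 20 points, and Pearson's r were computed in Python 3.11.15 with NumPy 2.4.6 and drawn with Matplotlib 3.10.9, and the functions were tested on simulated data. No test between species was run, since T. durum and B. rapa have 1 library each, and Dixon's ratio over species served only to pick sites for a closer look. Positions were placed by counting from the 5′ end up to the anticodon loop and from the 3′ end from position 48 on, which put 42 of 44 wheat sites on a cytosine of the A. thaliana consensus. Full values were given for chloroplast sites, sites 10 points or more from the eudicot mean or outside the eudicot range, positions 38, 50, 68 and 72, and sites without a number in A. thaliana or B. rapa. The members and lists were chosen with earlier results of these data known. The alternatives tried were 1 eudicot alone, G. biloba added, means for medians, 1 value per tRNA, rows with at least 1 eudicot number, other bases as 0%, nuclear sites alone, other thresholds, and each tRNA left out.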

Additional observations from a re-analysis of the deposited data

Results flagged for a closer look

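In T. durum, 3 sites lay far from every other species with a value: C49 of chloroplast tRNA-Cys(GCA) with 89% (5 species), C48 of chloroplast tRNA-Glu(TTC) with 90% (6 species), and C49 of nuclear or chloroplast tRNA-Leu(TAG) with 92% (4 species), while all other species had 0%. The gap to the nearest species equalled the whole range in each case, which is above Dixon's 95% critical value but follows from every other species being at 0%. A site at 0% in all other species is listed only if methylated in T. durum, so the flag adds no independent evidence. The criterion was applied to the 37 sites with a wheat number and values in at least 4 species. Chance alone flags about 1 in 20 groups where any member may be the outlier. Only T. durum values could be flagged here, and the chance rate for that was not worked out. Species are also not replicates of 1 group. The depth of the wheat reads at these sites and the origin of these reads were not tested.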

How the results depend on the processing

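Replicates could not be left out, because the A. thaliana column is a mean and T. durum and B. rapa have 1 library each. No paired analysis was possible because replicate numbers exist for A. thaliana alone and no test between species was run. Values that did not reverse direction and moved by less than the 3 points between eudicots, or counts within 1.5 times, made up 70 of 84 alternatives over 15 results. Medians of 0 counted among these, at C50 with A. thaliana alone and at C38 with B. rapa alone. The 3-point tolerance is wider than the main medians of 2.67 for all shared sites, 2.25 for nuclear sites, 2.08 at C49, 1 at C50 and 0.17 at C38. For these the share says little about stability. The nuclear median, for example, was 0.33 with A. thaliana alone and still counted as unmoved. Taking means in place of medians gave 11.6 points for all shared sites, 5.36 for nuclear sites, 67.8 for the chloroplast or possible chloroplast sites and 16.1 for C48. It turned the direction at C49 (−2.06), C50 (−2.1) and C38 (−0.28). C38 also turned with A. thaliana alone (−1). The lowest differences were −62.5 at C49 (tRNA-Val(CAC)), −19.3 at C50 (nuclear tRNA-Glu(TTC)) and −2.5 at C38 (tRNA-Gly(CCC)). A single low value pulls a mean more than a median, and means without these sites were not computed. The C49 minus C48 median of 5 became a mean of 13.4. Over nuclear sites alone, 5 sites were 20 points or more higher in T. durum and 1 was methylated in T. durum and in neither eudicot. At 30 points 1 site was lower, 20 points outside the eudicot range left 7 sites, and counting another base as 0% left 1 site with a number in T. durum alone.

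With each tRNA left out in turn, the median differences ranged from 2.25 to 3.5 for all sites, 2.08 to 3 for nuclear, 89 to 90 for chloroplast or possible chloroplast, 9.17 to 11 for C48, 2 to 2.17 for C49, 0.58 to 2.25 for C50 and −1.17 to 0.83 for C38. C38, with 3 sites, turned negative without tRNA-Asp(GTC) (−0.5) or tRNA-Gly(GCC) (−1.17). Sites higher by 20 points ranged from 7 to 8, sites lower from 1 to 2 (1 without tRNA-Glu(TTC) or tRNA-Val(CAC)), sites outside the range from 9 to 12, sites methylated in T. durum and in neither eudicot from 3 to 4, sites methylated in both eudicots and not in T. durum from 0 (without tRNA-Val(CAC)) to 1, and C49 minus C48 from 4 to 8. Unknown depth per site limits every value.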
